A study of Rattus norvegicus with 8 samples.

Results

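The nuclear lamins and their partners at the nuclear envelope were examined as a group of 10 listed genes, Lmna, Lmnb1, Lmnb2, Emd, Sun1, Sun2, Syne1, Syne2, Lbr and Banf1, of which 5 (Lmna, Lmnb1, Emd, Sun1 and Banf1) were matched to a probe set among the 15037 named genes of the array. Each of the 5 had 1 probe set. Lmnb2, Sun2, Syne1, Syne2 and Lbr matched no probe set by symbol, gene identifier or accession and were not analysed here. Among the members, the bridge between nucleus and cytoskeleton was therefore represented by Sun1 alone. Syne3, Syne4 and Spag4, related genes outside the member list, were measured among the other envelope proteins. The genes were chosen by symbol as one functional group, with their log2 intensities and differences over the same 8 arrays already known, so counts over them describe the members and are not independent evidence of a direction.

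RNA came from H9c2, a myoblast line derived from embryonic rat heart, cultured in a differentiation medium with little serum. There were 4 groups: 2 cultures with 100 µg/ml nanoceria (cerium oxide nanoparticles, an antioxidant) aboard the International Space Station, 1 untreated culture aboard the station, 3 nanoceria-treated cultures on ground and 2 untreated cultures on ground. All were seeded at 35000 cells per cm2 and fixed in RNAlater on day 10. The labels give every culture a pouch at 27 °C, launch day 4 and an incubator at 37 °C with day 7. All cultures shared this change of temperature before fixation, so its effect was not tested. For every sample 30 ng total RNA and 500 pg HeLa RNA were listed. Cultures on ground followed the flight in a separate run that repeated its logged temperatures, so gravity, launch and culture run cannot be told apart. One rat Clariom S Pico array was hybridised per culture. Nothing in the labels says that same-numbered cultures belong together or how far the cultures of a group are independent, so the p-values reflect only how these samples scatter, which may be partly technical.

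The nuclear lamina is a mesh of intermediate filament proteins under the inner nuclear membrane. A-type lamins, made from Lmna, are abundant in differentiated and mechanically loaded cells and stiffen the nucleus, whereas B-type lamins stay attached to the membrane and are made in most cells. In muscle, mutations of human LMNA and EMD cause Emery-Dreifuss muscular dystrophy. SUN proteins cross the inner membrane, hold nesprins in the outer membrane and so couple the lamina to actin, microtubules and desmin. Banf1 encodes a small DNA-binding protein that ties chromatin to the LEM-domain proteins, emerin among them.

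The pairwise Pearson correlation of log2 intensities over all 23188 probe sets was 0.959 to 0.992, and the median intensity of an array was 107 to 117. The 2 untreated ground arrays correlated at 0.967. These are RMA values, already scaled between arrays, so such likeness does not measure the quality of the RNA. Without a background measure, no lower limit of detection could be set for dim genes such as Lmnb1 in its lowest array. Among 7 measured myoblast markers, Myog (6.25 to 9.89), Cdh15 (8.54 to 9.55) and Myod1 (6.97 to 8.19 on the log2 scale, over the 8 arrays) were well above the dimmest values, while Myf5 lay at 4.01 to 4.75. The endothelial marker Pecam1 (4.16 to 4.73), the immune marker Ptprc (4.03 to 4.62) and the epithelial marker Epcam (3.75 to 4.19) were near the bottom of the scale. The matrix genes Col1a1 (14.10 to 14.24) and Col1a2 (14.09 to 14.24), which fibroblasts also express, were bright in every array, as were the fibroblast marker Dcn (11.02 to 12.44), the epithelial keratin Krt8 (10.42 to 12.15) and Tnnt2 (9.18 to 11.43), whereas Pdgfra of the fibroblast list was at 5.17 to 5.92 and Krt18 of the epithelial list at 6.33 to 6.71. Of the other cardiomyocyte markers, Ryr2 was at 3.71 to 4.89, Nppa at 5.71 to 7.07, Tnni3 at 6.12 to 6.52 and Myl7 at 6.22 to 6.58. Of the immune markers Cd68 was at 7.11 to 7.74, and of the endothelial ones Kdr was at 5.85 to 6.24. The myoblast marker Chrna1 was at 4.41 to 6.90. One array, untreated ground replicate 3, stood apart: of 18 genes of a proliferation list 16, and of 16 genes of a muscle differentiation list 14, were at their minimum over the 8 arrays there. In a bulk sample, fewer cells of a type and less RNA per cell cannot be told apart.

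No probe set passed an adjusted p of 0.05 in any of the 5 comparisons made (limma, Benjamini-Hochberg adjustment over all 23188 probe sets). An unadjusted p below 0.05 was met by 9.63% of probe sets for nanoceria over both regimes, 11.0% for nanoceria on ground, 9.56% for space over both treatments, 8.41% for space in nanoceria-treated cells and 2.35% for the interaction. The members are therefore described by their values, and by an unadjusted p below 0.05 set beside the share of all probe sets that meet it. All differences are log2 differences of intensity with their standard error (SE). Lmna, Lmnb1 and Emd lay higher in nanoceria-treated than in untreated cells at that unadjusted threshold. Lmna also lay lower in space than on ground at that threshold, over both treatments and in nanoceria-treated cells. Its untreated space array (10.88) lay between the untreated ground arrays (10.85 and 11.47). Sun1 and Banf1 had no difference below it in any comparison.

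Lmna encodes lamins A and C, the A-type filaments of the lamina. Its log2 intensity was 11.67 and 11.61 in nanoceria-treated cells in space and 10.88 in the untreated culture in space. On ground it was 12.39, 12.21 and 11.96 in nanoceria-treated cells, against 10.85 and 11.47 in untreated cells. All 5 treated arrays (11.61 to 12.39) were above all 3 untreated arrays (10.85 to 11.47), and the highest untreated array was the one that stood apart in proliferation genes. Over both regimes the difference was 0.93 ± 0.17 (SE, 95% interval 0.53 to 1.33), a 1.91-fold higher intensity, with an unadjusted p of 5.83e-04 and an adjusted p of 0.337 (limma). On ground alone, with 3 treated and 2 untreated arrays, it was 1.02 ± 0.23 (SE), 2.03-fold, with an adjusted p of 0.219 (limma). Group means on ground were 12.18 ± 0.22 (SD, n = 3) in nanoceria-treated cells and 11.16 ± 0.43 (SD, n = 2) in untreated cells. In space the mean of the 2 treated arrays was 0.76 above the single untreated one, which carries no spread of its own.

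Lmnb1 encodes lamin B1, the farnesylated B-type lamin that is made in step with the cell cycle and is lost in many senescent cells. Its log2 intensity was 7.33 and 7.29 in nanoceria-treated cells in space and 7.00 in untreated cells in space. The ground values were 8.07, 7.27 and 6.93 in nanoceria-treated cells, against 6.41 and 4.45 in untreated cells. The 4.45 of untreated ground replicate 3 was far below all other arrays, which spanned 6.41 to 8.07, and over both regimes the treated (6.93 to 8.07) and untreated (4.45 to 7.00) ranges overlapped. On ground they did not overlap.

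The Lmnb1 difference over both regimes was 1.39 ± 0.50 (SE, 95% interval 0.24 to 2.55), 2.63-fold, with an unadjusted p of 0.0234 and an adjusted p of 0.464 (limma). On ground it was 2.00 ± 0.56 (SE, 95% interval 0.68 to 3.31), 3.99-fold, with an unadjusted p of 0.00857 and an adjusted p of 0.294 (limma). Much of its size came from 1 array: without untreated ground replicate 3 it was 0.68 over both regimes (unadjusted p 0.0572, limma). On ground it was then 1.02, with untreated ground replicate 1 as the only untreated array. Without untreated ground replicate 1, which leaves that outlying array as the only untreated one on ground, it was 2.98 on ground with an adjusted p of 0.0419 (limma), the single setting in which a member passed the adjusted threshold. Leaving out nanoceria ground replicate 1, the brightest, gave 1.13 over both regimes (unadjusted p 0.0530, limma).

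**Figure D1:**
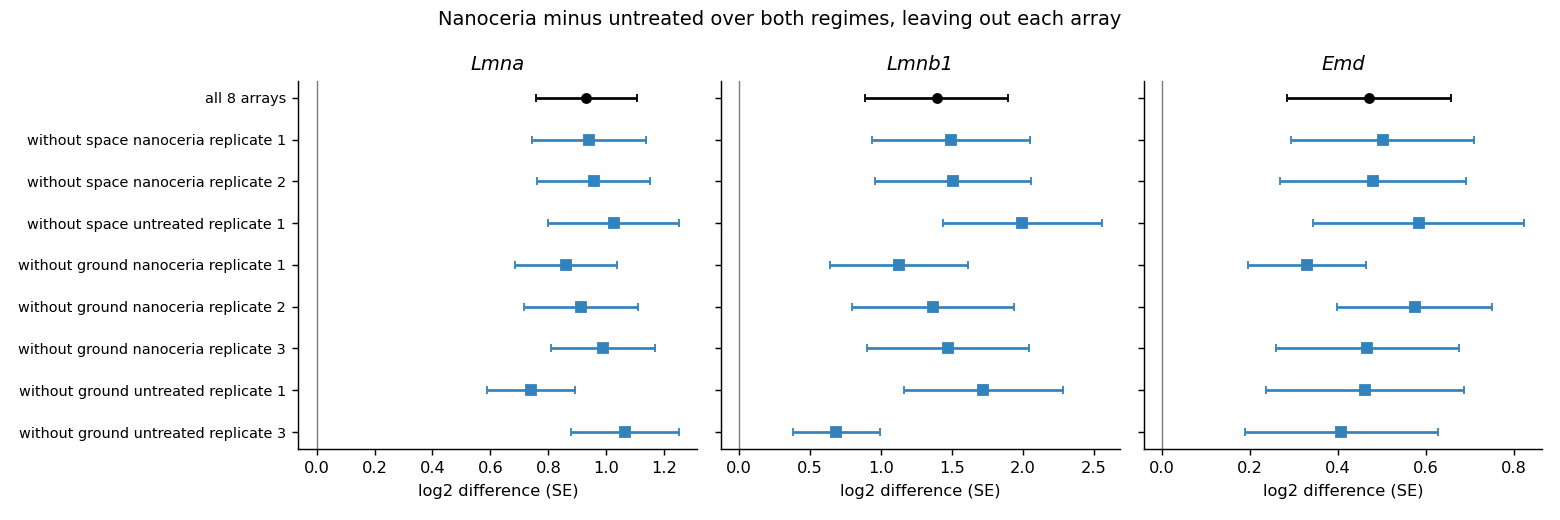
Log2 difference (bars, SE) of nanoceria against untreated over both regimes for Lmna, Lmnb1 and Emd, with all 8 arrays and with each array left out in turn; each plot has its own axis. Lmna stays between 0.74 and 1.06, while Lmnb1 runs from 0.68 to 2.00.

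The sequences before the transcription starts of Lmna and Lmnb1 are shown because the differences of this group turn on these lamins. Those of Cdca3 and Fam83d are shown because their log2 values were among the most like Lmnb1's over the 8 arrays (Pearson r 0.983 and 0.977). Il20ra was more like Lmnb1 still (r = 0.984), but its window is not shown, so the windows shown are a selection. Each run is the 250 bases before the annotated RefSeq start on the gene's strand in GRCr8, a build different from the Rnor_6.0 reference of the array, at chr2:176258236-176258485 (minus strand) for Lmna, chr18:52373689-52373938 (plus) for Lmnb1, chr4:159320953-159321202 (plus) for Cdca3 and chr3:167841542-167841791 (plus) for Fam83d. Capitals mark matches, on either strand, to the CHR core TTTGAA, known from cell-cycle promoters, the CCAAT box, the GC box GGGCGG, the AP-1 site TGACTCA or the E2F words TTTCCCGC, TTTCGCGC, TTTGCCGC and TTTGGCGC.
Lmna: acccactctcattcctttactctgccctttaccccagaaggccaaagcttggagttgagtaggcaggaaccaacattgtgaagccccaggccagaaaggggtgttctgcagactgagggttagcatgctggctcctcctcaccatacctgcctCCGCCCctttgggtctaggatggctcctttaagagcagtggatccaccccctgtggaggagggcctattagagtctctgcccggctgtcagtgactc
Lmnb1: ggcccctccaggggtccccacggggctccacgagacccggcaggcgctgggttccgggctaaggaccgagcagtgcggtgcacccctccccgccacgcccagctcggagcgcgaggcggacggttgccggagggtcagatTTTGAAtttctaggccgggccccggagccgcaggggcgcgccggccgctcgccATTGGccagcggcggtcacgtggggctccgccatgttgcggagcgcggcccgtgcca
Cdca3: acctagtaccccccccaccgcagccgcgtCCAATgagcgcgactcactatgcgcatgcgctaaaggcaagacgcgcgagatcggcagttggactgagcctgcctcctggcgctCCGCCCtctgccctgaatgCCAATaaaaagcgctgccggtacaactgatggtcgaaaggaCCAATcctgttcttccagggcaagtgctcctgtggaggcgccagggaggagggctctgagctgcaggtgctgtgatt
Fam83d: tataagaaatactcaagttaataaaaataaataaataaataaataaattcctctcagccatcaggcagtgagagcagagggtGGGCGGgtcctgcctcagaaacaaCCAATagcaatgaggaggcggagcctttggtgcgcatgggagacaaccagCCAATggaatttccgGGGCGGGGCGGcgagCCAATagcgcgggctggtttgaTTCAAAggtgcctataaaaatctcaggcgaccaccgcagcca
The Lmnb1 window held a CHR core 110 to 105 bases before the start and a CCAAT box, read as ATTGG, 57 to 53 bases before it. The Lmna window held a GC box, read as CCGCCC, 97 to 92 bases before its start, and none of the other motifs. Fam83d, which encodes a spindle protein, held a CHR core read as TTCAAA 42 to 37 bases before its start, 3 CCAAT boxes and 3 GC boxes, 2 of which share a base. Cdca3, which encodes a trigger of mitotic entry, held 3 CCAAT boxes and 1 GC box. Of all 33469 RefSeq windows of the same length, 16.2% held the CHR core, 34.0% the CCAAT box, 30.5% the GC box, 4.05% the AP-1 site and 1.73% an E2F word, and 5.87% held both the CHR core and the CCAAT box. Among the other measured members, the Banf1 window held 1 CHR core, 1 CCAAT box and 1 AP-1 site, and the Emd and Sun1 windows held none of the 5 motifs. A match of these letters is a description and says nothing of binding.

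The other gene of closest pattern to Lmnb1 was Il20ra (r = 0.984), a cytokine receptor subunit whose own values spanned only 4.94 to 5.39. For Lmna the closest were Dnajc25 (r = 0.977), Yif1b (r = 0.970) and Bud13 (r = 0.968), each over the same 8 arrays, which share their cultures and scaling. Cdca3 was at 6.58 in untreated ground replicate 3, against 9.76 to 11.15 in the other 7 arrays, so that its likeness to Lmnb1 includes that array's low value. Set against their own 8-array means, Lmnb1 was at -2.40 in that array and the mean of the 18 proliferation genes at -1.84, while Lmna was at -0.16. In untreated ground replicate 1 the order differed: Lmna was at -0.78 and Lmnb1 at -0.44, and the proliferation mean was at 0.29. The part of the proliferation genes in the Lmnb1 difference was not tested.

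**Figure D2:**
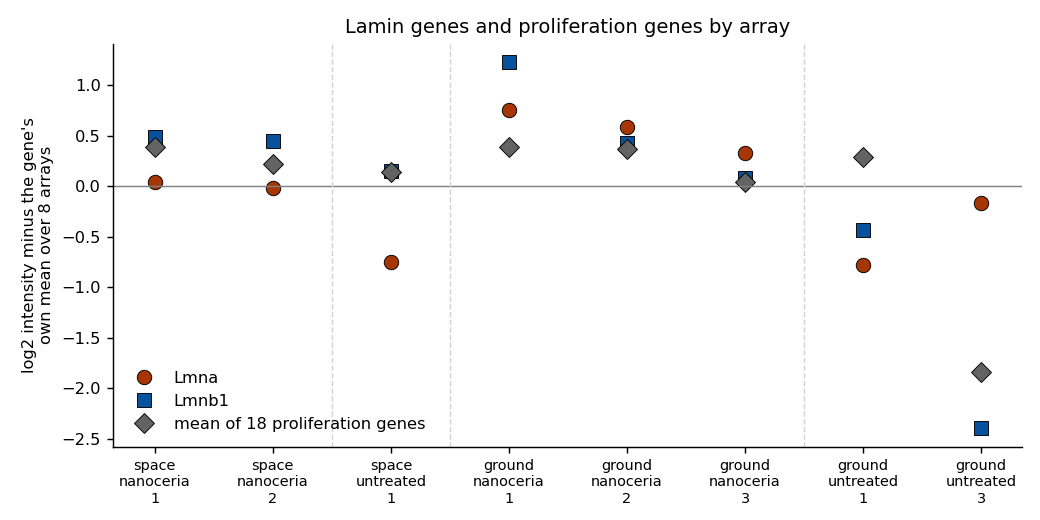
Deviation of Lmna, Lmnb1 and the mean of the 18 proliferation genes from their own 8-array means, in log2 units, in each array. Untreated ground replicate 3 has Lmnb1 at -2.40, the proliferation mean at -1.84 and Lmna at -0.16.

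Emd encodes emerin, a LEM-domain protein of the inner nuclear membrane that binds lamin A and the Banf1 product. Its log2 intensity was 10.01 and 10.09 in nanoceria-treated cells in space and 9.78 in the untreated culture in space. The ground cultures had 10.79, 9.98 and 10.33 in nanoceria-treated cells, against 9.83 and 9.73 in untreated cells. All 5 treated arrays were above all 3 untreated arrays, the lowest treated value being 9.98 and the highest untreated one 9.83. The difference was 0.47 ± 0.19 (SE, 95% interval 0.044 to 0.90) over both regimes, 1.39-fold, with an unadjusted p of 0.0345 and an adjusted p of 0.482 (limma). On ground it was 0.58 ± 0.24 (SE), 1.50-fold, with an unadjusted p of 0.0441 and an adjusted p of 0.444 (limma). Without nanoceria ground replicate 1 it was 0.33 over both regimes (unadjusted p 0.0425, limma). Over both regimes the unadjusted p was above 0.05 without untreated ground replicate 3 (0.41, p 0.102), untreated ground replicate 1 (0.46, p 0.0761), nanoceria ground replicate 3 (0.47, p 0.0589) or nanoceria space replicate 2 (0.48, p 0.0569, limma), and with array weights (0.35, p 0.0662, limma). On ground it was above 0.05 under 9 of 16 alternatives, 6 of them with 1 array left out, with p from 0.0695 to 0.139 in those 6.

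Sun1 encodes an inner membrane SUN-domain protein, the lamina-side anchor of the nesprins. Its log2 intensity was 9.79 and 9.81 in nanoceria-treated cells in space and 9.67 in the untreated culture in space. On ground it was 9.52, 9.90 and 8.99 in nanoceria-treated cells, against 9.19 and 9.97 in untreated cells. Both the lowest and the highest value were on ground, and treated and untreated arrays overlapped. The difference was -0.02 ± 0.24 (SE, 95% interval -0.57 to 0.53) over both regimes, with an adjusted p of 0.982 (limma), an interval that leaves room for a change in either direction. It was 0.21 without untreated ground replicate 3 and 0.13 without nanoceria ground replicate 3, so its sign rested on single arrays. On ground alone the difference was -0.11 ± 0.32 (SE, adjusted p 0.924, limma).

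Banf1 encodes the barrier-to-autointegration factor, which cross-bridges DNA and LEM proteins when the nuclear envelope reforms after mitosis. Its log2 intensity was 11.08 and 11.32 in nanoceria-treated cells in space and 11.14 in the untreated culture in space. In the ground cultures it was 11.69, 11.08 and 11.31 in nanoceria-treated cells, against 11.24 and 10.74 in untreated cells. The groups overlapped over both regimes and on ground. The difference was 0.26 ± 0.19 (SE, 95% interval -0.17 to 0.68) over both regimes, with an adjusted p of 0.682 (limma). On ground alone it was 0.37 ± 0.24 (SE, adjusted p 0.612, limma), so neither comparison resolved a difference for Banf1.

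Counted together, 3 of the 5 measured members (Lmna, Lmnb1 and Emd) lay higher with nanoceria over both regimes at an unadjusted p below 0.05 and none lower, where 3.77% of all probe sets lay higher and 5.86% lower. The count without untreated ground replicate 3 was 1 of 5 (Lmna), where 3.10% of all probe sets lay higher. The groups did not overlap for 2 of the 5, both higher with nanoceria, against 2.47% of all probe sets in that direction and 2.28% in the other. On ground alone Lmna, Lmnb1 and Emd lay higher and none lower, where 4.42% of all probe sets lay higher and 6.57% lower. There the groups did not overlap for these 3 of 5, against 14.3% of all probe sets higher and 12.0% lower. Without untreated ground replicate 3, 1 untreated array is left on ground, so no count of members is given for that setting. The members' median difference was 0.47 over both regimes and 0.58 on ground, beside 0.033 and 0.038 for all probe sets. These comparisons share their ground arrays, and the members were chosen with such differences known.

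**Figure D3:**
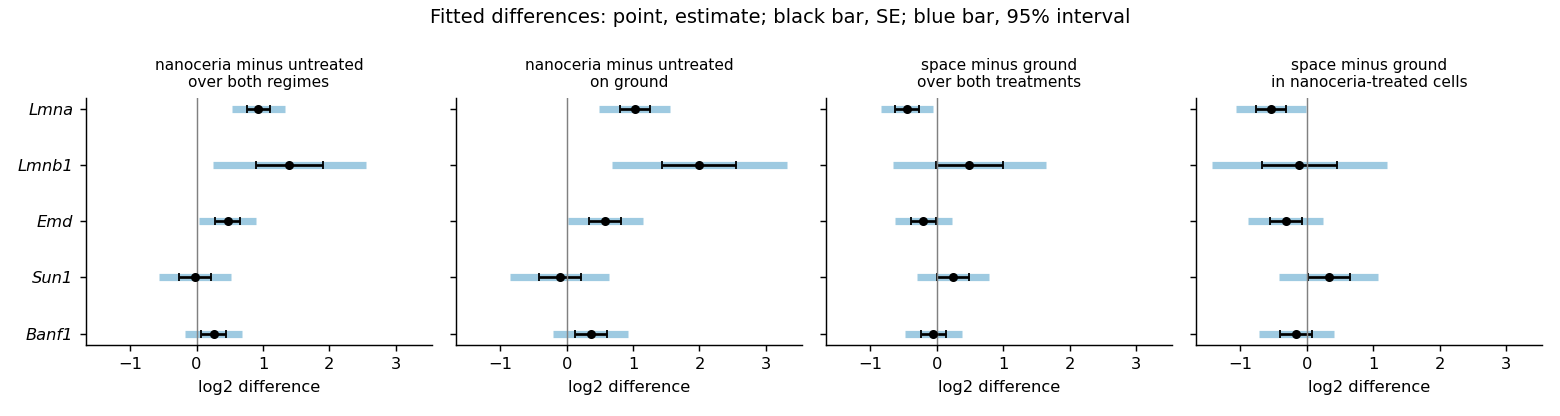
Log2 difference of each measured member in 4 comparisons, as points with SE bars (black) and 95% intervals (blue); the interaction is not plotted. For nanoceria against untreated, the intervals of Lmna, Lmnb1 and Emd lie above 0, and in both plots of space against ground only the Lmna interval lies away from 0, below it.

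Space was set against ground to ask whether the culture regime went with the same genes. Over both treatments, Lmna differed by -0.45 ± 0.17 (SE, 95% interval -0.85 to -0.050), with an unadjusted p of 0.0316 and an adjusted p of 0.489 (limma). The space arrays (10.88 to 11.67) overlapped the ground arrays (10.85 to 12.39), as they did for every measured member, where 1.97% of all probe sets were higher and 3.14% lower without overlap. Within nanoceria-treated cells they did not: 11.67 and 11.61 in space, against 12.39, 12.21 and 11.96 on ground, a difference of -0.54 ± 0.23 (SE) with an unadjusted p of 0.0464 and an adjusted p of 0.586 (limma). Lmna was thus 1 of 5 members lower in space at that unadjusted threshold in each comparison, and none was higher. Over both treatments 4.26% of all probe sets lay lower and 5.30% higher, and in nanoceria-treated cells 3.39% lay lower and 5.02% higher. Non-overlap in nanoceria-treated cells held for 17.6% of all probe sets in the lower direction and 13.6% in the higher, so the Lmna non-overlap is a frequent pattern there. Over both treatments the Lmna difference had an unadjusted p above 0.05 without nanoceria space replicate 1 (-0.43) or 2 (-0.40), untreated ground replicate 3 (-0.37) or nanoceria ground replicate 1 (-0.38) or 2 (-0.43), and with the replicate block (-0.43). In nanoceria-treated cells it had one without either space array (-0.57 and -0.51) or without nanoceria ground replicate 1 (-0.44) or 2 (-0.53), and with equal array medians (-0.57) or the replicate block (-0.52).

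No other member had an unadjusted p below 0.05 between regimes. Over both treatments the difference was 0.49 ± 0.50 for Lmnb1, -0.20 ± 0.19 for Emd, 0.24 ± 0.24 for Sun1 and -0.05 ± 0.19 for Banf1 (SE), with adjusted p-values of 0.748 to 0.945 (limma). In nanoceria-treated cells Emd differed by -0.32 ± 0.24, Sun1 by 0.33 ± 0.32, Banf1 by -0.16 ± 0.24 and Lmnb1 by -0.11 ± 0.56 (SE). The members' median was -0.05 over both treatments, beside -0.044 for all probe sets.

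Whether the nanoceria difference itself differed between space and ground was tested by the interaction term, with a single untreated culture in space. None of the 5 members had an unadjusted p below 0.05 there, where 1.44% of all probe sets had one with a higher term and 0.906% with a lower one. The term, space minus ground, was -1.68 ± 0.94 for Lmnb1 (unadjusted p 0.114), -0.26 ± 0.38 for Lmna, -0.32 ± 0.40 for Emd, -0.30 ± 0.40 for Banf1 and 0.24 ± 0.53 for Sun1 (SE, limma). Without untreated ground replicate 1, which leaves replicate 3 as the only untreated ground array, the Lmnb1 term was -2.66 with an unadjusted p of 0.00368 (limma). For the other 4 members the standard errors exceeded the terms.

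Genes that work beside the members were read from 5 further lists. On ground, 4.42% of all probe sets lay higher with nanoceria and 6.57% lower at an unadjusted p below 0.05, and for lists of this size counts of 1 or 2 say little beyond that. Of 20 measured genes of other inner nuclear membrane and envelope proteins, 2 lay higher with nanoceria on ground at an unadjusted p below 0.05 and 0 lower, with a list median of 0.17, beside 4.42% higher and 6.57% lower over all probe sets. Nrm, which encodes nurim, a multispanning inner membrane protein, had 9.34, 8.77 and 8.87 in nanoceria-treated cells, against 8.30 and 7.38 in untreated cells (1.15 ± 0.31, adjusted p 0.275, limma). Lemd2, which encodes a LEM-domain relative of emerin, had 7.99, 7.85 and 8.00 in nanoceria-treated cells, against 6.90 and 7.69 in untreated cells (0.66 ± 0.24, adjusted p 0.398, limma). For both genes the treated ground arrays lay above the untreated ones, as they did for 14.3% of all probe sets.

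Of 6 enzymes and binders of lamin processing, 1 lay higher with nanoceria on ground, Fntb, the farnesyltransferase beta subunit that prenylates prelamin A and lamin B (0.74 ± 0.27, adjusted p 0.399, limma), beside 4.42% of all probe sets. Fntb was at 9.12, 9.34 and 8.96 in nanoceria-treated cells on ground, against 8.85 and 7.94 in untreated cells. The 7.94, its lowest value, was in untreated ground replicate 3, so the Fntb difference includes that array's low value. Zmpste24, the protease that releases mature lamin A, differed by -0.36 ± 0.31 (SE). The median of this list on ground was 0.013. Without untreated ground replicate 3, which leaves 1 untreated array on ground, it was 0.10, beside 0.021 for all probe sets. Of 7 genes of envelope reassembly, 1 lay lower, Ahctf1, which encodes ELYS, the nucleoporin that seeds pores on chromatin, beside 6.57% of all probe sets. It had 8.00, 8.32 and 7.77 in nanoceria-treated cells on ground, against 9.02 and 9.08 in untreated cells, and 8.89 and 8.85 in nanoceria-treated cells in space, against 9.25 in the untreated culture there. Its difference on ground was -1.02 ± 0.19 (SE), with an adjusted p of 0.157 (limma), and every treated array was below every untreated one, as for 12.0% of all probe sets on ground and 2.28% over both regimes.

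Of 26 nuclear pore genes, 2 lay higher with nanoceria on ground and 2 lower, with a list median of 0.045 beside 0.038 for all probe sets, and shares of 4.42% higher and 6.57% lower over all probe sets. These counts are near that background. Nup93 (0.63 ± 0.19) and Nup85 (0.93 ± 0.29), scaffold nucleoporins, were the 2 higher. Ranbp2, a filament nucleoporin and SUMO ligase on the cytoplasmic face, differed by -1.24 ± 0.36 (SE, adjusted p 0.305, limma). Nup54 was the other lower one, at -0.69 ± 0.29 (SE). Of 8 cytoskeletal partners of the bridge, Des, the muscle intermediate filament protein that links to the nucleus through nesprins and plectin, lay higher by 0.63 ± 0.20, and Kif5b, the kinesin heavy chain that moves nuclei in myotubes, differed by -1.39 ± 0.45 (SE, adjusted p 0.351, limma). Des was at 7.54, 7.66 and 7.33 in nanoceria-treated cells on ground, against 7.12 and 6.64 in untreated cells. The 6.64, its lowest value, was in untreated ground replicate 3. Plec, which encodes plectin, differed by 0.66 ± 0.31. Of the 18 proliferation genes, 7 lay higher and 0 lower on ground (median 1.10), and of 16 muscle differentiation genes 10 lay higher (median 1.25), where 4.42% of all probe sets lay higher and 6.57% lower. In untreated ground replicate 3, 16 of these 18 and 14 of these 16 genes were at their minimum over the 8 arrays. Both counts therefore include that array's low values. Without untreated ground replicate 3, which leaves 1 untreated array on ground, these 2 medians fell to 0.21 and 0.57, beside 0.021 for all probe sets. No counts are given for that setting. The other list medians in that setting were 0.15 for other envelope proteins, -0.23 for reassembly, 0.078 for the pore and 0.26 for cytoskeletal partners.

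For space against ground over both treatments, where 5.30% of all probe sets lay higher and 4.26% lower at an unadjusted p below 0.05, the same lists had few calls. The other envelope proteins had 0 higher and 2 lower of 20, Syne4, a nesprin that binds kinesin (-0.45 ± 0.16), and Tmem120a (-0.55 ± 0.22, SE). The pore had 3 higher and 0 lower of 26, Nup58 (0.41 ± 0.12), Nup54 (0.55 ± 0.23) and Ranbp2 (0.72 ± 0.31, SE). Reassembly had 1 higher of 7, Ahctf1 (0.61 ± 0.18), lamin processing 1 higher of 6, Fntb (0.65 ± 0.26, SE), and the cytoskeletal partners none of 8. In untreated cells alone, Tmem120a was at 8.80 in space, between the 8.75 and 9.06 on ground, and Syne4 at 6.82 against 7.07 and 7.06. Ranbp2 was at 8.94 in space against 8.91 and 8.73 on ground in untreated cells, and Ahctf1 at 9.25 against 9.02 and 9.08. Nup54 was at 7.48 against 7.28 and 7.32 in untreated cells, Nup58 at 8.80 against 8.30 and 8.45, and Fntb at 9.70 against 8.85 and 7.94. Proliferation had 1 higher of 18 and muscle differentiation 1 lower of 16. Without untreated ground replicate 3 the counts were 0 higher and 1 lower for the other envelope proteins, 2 and 0 for the pore, 2 and 0 for reassembly, 1 and 0 for lamin processing, 1 and 3 for proliferation and 0 and 4 for muscle differentiation, where 5.61% of all probe sets lay higher and 4.56% lower. In nanoceria-treated cells, 8 of the 16 muscle differentiation genes lay lower in space and 0 higher (median -0.83). There 3.39% of all probe sets lay lower and 5.02% higher, and the proliferation list had 0 higher and 0 lower of 18. For the interaction, muscle differentiation had 6 lower and 0 higher of 16, where 0.906% of all probe sets lay lower and 1.44% higher. That term uses the 1 untreated space array, and 14 of the 16 genes were at their minimum in untreated ground replicate 3. The part of that array in this count was not tested.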

How the data were processed

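Total RNA of 8 cultures was hybridised to 1 array each, and the number of arrays limits the precision. The deposited values were RMA intensities on a linear scale (8.63 to 19506), per the submitters' processing notes and the values. The software's version and settings are not given in the sources used here. Log2 was taken with no pseudocount. Of 23188 probe sets, 15049 carried a single symbol. For a gene, the brightest probe set by mean log2 was used.

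For each probe set, limma 3.58.1 (lmFit and eBayes, R 4.3.3) gave the differences, with Benjamini-Hochberg adjustment over all probe sets at 0.05. A model with additive terms for regime and treatment gave the comparisons over both regimes and both treatments, and a fit with 1 mean per group gave the others. The steps were tested on simulated data: at a 4-fold change, 98.5% of 200 changed probe sets were recovered for nanoceria on ground, 99% for nanoceria over both regimes, 98% for space over both treatments, 57.5% for the interaction and 98.5% for space in nanoceria-treated cells. With 2-fold changes, 76.5% were recovered for nanoceria over both regimes, 75% for space over both treatments and 0% for the other 3. The simulated noise was normal and independent between arrays and probe sets, with no outlying array such as untreated ground replicate 3. These shares may therefore not hold for the real arrays.

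All 5 measured members were named, with up to 3 genes of smallest p from each other list and the 3 most alike to Lmna and Lmnb1. Members and lists were chosen with earlier results of these data known. Promoter windows came from RefSeq (GRCr8), where 9 of 10 listed members matched. Scaling, dim-probe filter, variance model, array weights, array subsets, replicate block and each array left out were tried as alternatives.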

Additional observations from a re-analysis of the deposited data

How the results depend on the processing

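Of 380 member values recomputed under the alternatives, 332 kept their direction and their side of an unadjusted p of 0.05, 28 lost that threshold, 2 gained it and 18 changed sign, and the causes were not tested. Lmna against untreated kept its direction and an unadjusted p below 0.05 under all 15 alternatives over both regimes and all 16 on ground. Leaving out single arrays moved it from 0.74 to 1.06 over both regimes and from 0.72 to 1.33 on ground. Probe sets at an adjusted p below 0.05 (limma) numbered 0 to 167 on ground with single arrays left out, the 167 without untreated ground replicate 1. For space against ground over both treatments they numbered 1 with an intensity trend, 4 with array weights and 0 to 1 with single arrays left out. At an unadjusted p below 0.05, that comparison gave 2217 probe sets, 1284 with the replicate block and 1231 to 2910 with single arrays left out. In nanoceria-treated cells it gave 1950, 3065 with array weights, 1059 with the block and 990 to 2337 with arrays left out. The interaction gave 545, 362 among the brighter probe sets, 340 with the block and 343 to 1330 with arrays left out. Members below that p numbered 1 to 3 for nanoceria over both regimes with arrays left out. For space against ground they numbered 0 with the block and 0 to 1 with arrays left out, in nanoceria-treated cells 0 with equal medians, 0 with the block and 0 to 1 with arrays left out, and for the interaction 1 with the block and 0 to 1 with arrays left out.

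Signs turned for Sun1 with nanoceria over both regimes (9.95e-04 with equal medians, 0.077 with array weights, -0.20 to 0.21 with arrays left out) and on ground (0.065 with array weights, -0.49 to 0.28). For space against ground they turned for Banf1 (0.014 with array weights, -0.16 to 0.059) and Lmnb1 (-0.044 with the replicate block, -0.11 to 0.75), and in nanoceria-treated cells for Banf1 (-0.30 to 0.0042) and Lmnb1 (-0.36 to 0.21). For the interaction they turned for Lmna (-0.57 to 0.045) and Sun1 (-0.15 to 0.62). Same-numbered arrays deviated from their group means with correlations of -0.348 to -0.013, so the numbers were not taken to pair samples. Using all probe sets of a member gave no value, since each had 1. The interaction could not be fitted without the untreated space array. List counts and medians without untreated ground replicate 3 were chosen after seeing the data.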
